A study of Rattus norvegicus with 8 samples.

Results

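Ribosome biogenesis genes encode RNA polymerase I, its initiation factors and the nucleolar proteins that process ribosomal RNA and assemble it into subunits. A set of 43 such genes was chosen by symbol for their roles, and array probes were assigned to them through RefSeq accessions. Their levels were followed in male rats of the inbred strain F344/NSlc at 10 weeks of age. The right kidney was compared between 4 nephrectomized rats, in which it was the residual kidney, and 4 sham-operated rats. Of the 43, 37 were matched to a probe and tested among 19865 genes (9925 with a symbol, the others by accession or probe), and all 37 were well above background on all 8 arrays. Rrp12, Nop14, Nhp2, Wdr75, Rrp1 and Tsr1 were not analysed here.

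RNA polymerase I transcribes the ribosomal DNA repeats into a long precursor RNA in the nucleolus. Small nucleolar ribonucleoproteins (snoRNPs) then modify that precursor, and assembly factors cut, fold and join it with ribosomal proteins into the small and large subunits. The pathway consumes a large share of a growing cell's resources, and the residual kidney enlarges after unilateral nephrectomy, which is why these genes are of interest here. The probes measured mRNA of the protein-coding genes. Ribosomal RNA, protein and the amount of RNA per kidney were not measured.

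Total RNA of the right kidney was labelled with Cy3 and each sample had its own array. The source label gives day 1 after the operation for the sham samples and day 2 for the nephrectomized ones, whereas the series text gives 2 days, so a difference of time between groups cannot be told apart from one of operation. Each of 2 slides held 2 rats of each group. Between 54.8% and 65.5% of the 41012 gene probes were well above background per array, none was saturated, and the correlation across genes between any 2 arrays was 0.984 to 0.996 (genes are no independent replicates). Values are log2 intensities from which the 75th percentile of each array was subtracted, so they are relative to the other mRNA of the same sample and are comparable between rats but not between genes. Markers of proximal tubule (4 of 4), thick ascending limb (2 of 2), distal tubule (2 of 2) and collecting duct (2 of 2) were well above background on all 8 arrays. The same held for markers of podocytes (3 of 3), endothelium (3 of 3) and mesenchyme (3 of 3). Of 6 listed leukocyte markers only 3 were measured, and these 3 were also well above background on all arrays. In whole tissue, fewer cells of a type and less RNA per cell cannot be told apart. Precision is limited by having 4 arrays in each group.

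Nephrectomy was not accompanied by a called change in any of the 37 genes. With limma and Benjamini-Hochberg adjustment over all genes tested, 0 members were higher and 0 lower at an adjusted p of 0.05, against a background of 2.57% of all genes called higher and 1.02% called lower, or 3.59% in either direction. At an unadjusted p of 0.05, 8 of 37 members (21.6%) passed, 3 higher and 5 lower, against 17.7% of all genes, 10.1% higher and 7.6% lower. For 5 members (13.5%) the groups were fully separated, 2 higher and 3 lower after nephrectomy, against 12.6% of all genes, 7.56% higher and 5.07% lower. These shares are descriptions, with no test of the list. Array weights called 4 members and a trend and robust variance model called 1, where they called 12.7% and 4.58% of all genes. For 35 of 37 the 95% interval of the log2 fold change lay inside a 1.5-fold change either way, as it did for 82.4% of all genes tested. Leaving aside Utp18, whose sham group held 1 rat far below the others, the intervals ran from 0.655-fold to 1.39-fold. Of 7 listed markers of dividing cells, 6 were tested on the same arrays (not Top2a). All 6 were higher, with log2 fold changes of 1.08 to 1.94.

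The members' log2 fold changes had a median of -0.07, and 26 of 37 (70.3%) were negative. The median over all genes tested was -0.0004, with 50.1% negative. The share of negative values was not particular to the members. Among the other pathway genes described below, without ribosomal proteins, 82 of 117 (70.1%) were negative, with a median of -0.04. Taken rat by rat, the median over the members relative to the sham mean was -0.03, 0.04, 0.01 and -0.01 in sham rats 1 to 4 and -0.06, -0.11, -0.02 and -0.06 in nephrectomized rats 1 to 4. The third nephrectomized rat lay inside the sham range, and rats 1, 2 and 4 lay below it. On slide 1 the median was -0.10 and on slide 2 it was -0.04, against 0.01 and -0.01 for all genes. Both slides gave a negative value for 22 members (59.5%) and for 34.0% of all genes. The sign differed between slides for Nop58, Nop10, Heatr1, Utp18, Ltv1, Bop1, Wdr12, Noc2l and Npm1. Dividing-cell markers rose in the same rats, and their part in these values was not tested.

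**Figure D1:**
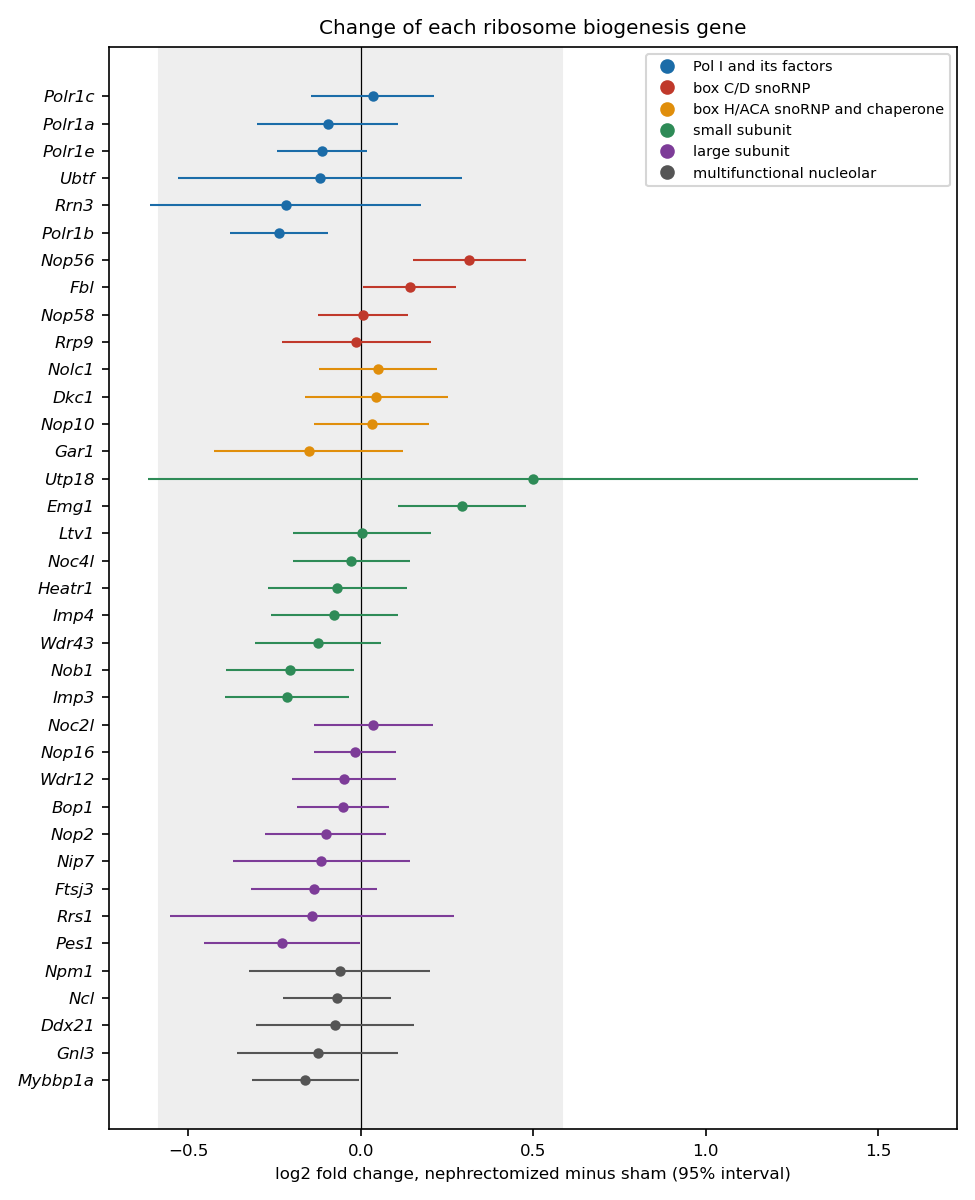
Log2 fold change of each of the 37 genes tested (x axis, nephrectomized minus sham, points) with its 95% interval (lines, limma, 4 rats per group), grouped and coloured by role. The grey band marks 1.5-fold either way, which contains 35 of the 37 intervals, and Utp18 has the widest one.

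RNA polymerase I and its factors held 5 negative values among 6 genes, with a median log2 fold change of -0.11, and none passed. Polr1b, the second largest subunit of the enzyme, read -1.39, -1.45, -1.44 and -1.39 in sham rats 1 to 4 and -1.59, -1.77, -1.58 and -1.67 in nephrectomized rats 1 to 4. Every nephrectomized rat lay below every sham rat, and the sham rats were close together (SD 0.03, n = 4) compared with the nephrectomized ones (SD 0.09, n = 4). The log2 fold change was -0.24 (SE 0.06, 95% interval -0.38 to -0.09), or 0.848 of the sham level, with an adjusted p = 0.0849 by limma. It was -0.26 on slide 1 and -0.21 on slide 2.

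Polr1a, the largest and catalytic subunit, had a log2 fold change of -0.10 (interval -0.30 to 0.11). Polr1e, a subunit of the dimer that assists initiation and elongation, had -0.11 (-0.24 to 0.02). The value of Polr1c, which RNA polymerase III shares, was 0.03 (-0.14 to 0.21), and its second probe gave -0.02. Rrn3, the factor that makes the polymerase competent to initiate, had -0.22 (-0.61 to 0.18). Its nephrectomized rats read -3.65, -3.60, -2.95 and -3.72, so that rat 3 lay above all 4 sham rats (-3.40 to -3.03) and rats 1, 2 and 4 below them. Ubtf, the upstream binding factor that keeps ribosomal DNA open, varied within groups (SD 0.28 in sham and 0.30 in nephrectomized rats, n = 4 each). Its log2 fold change was -0.12 (-0.53 to 0.29), and its other probes gave 0.05 and -0.07.

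Proteins of box C/D snoRNPs, which guide methylation of ribosomal RNA, included the member with the smallest p. Nop56, a core protein of these particles, read 2.84, 2.89, 2.89 and 2.66 in sham rats 1 to 4 and 3.11, 3.17, 3.06 and 3.20 in nephrectomized rats 1 to 4. All 4 nephrectomized rats were above all 4 sham rats. The difference was 1.24-fold (95% interval 1.11 to 1.39; log2 fold change 0.31, SE 0.07), and at an adjusted p = 0.0535 by limma it missed the threshold. A trend and robust variance model (adjusted p = 0.0259) and array weights (adjusted p = 0.0141) put it past the threshold. The other alternatives gave an adjusted p up to 0.597. A second probe of Nop56 gave 0.19 with overlapping groups (unadjusted p = 0.136 by limma).

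Fbl, fibrillarin, the methyltransferase of the same particle, read 4.91, 4.90, 5.03 and 4.88 in sham rats and 5.06, 5.02, 5.11 and 5.10 in nephrectomized rats. The groups met where sham rat 3 stood just above nephrectomized rat 2. The log2 fold change was 0.14 (SE 0.06, interval 0.01 to 0.28, adjusted p = 0.255 by limma), and it was 0.14 on each slide. Nop58, the partner of Nop56, had 0.01 (-0.12 to 0.14), and Rrp9, a protein of the snoRNP that directs early cleavages of the precursor, had -0.01 (-0.23 to 0.20). The 4 proteins of this class ran from -0.01 to 0.31, with a median of 0.07.

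The box H/ACA class, whose particles convert uridine to pseudouridine, had log2 fold changes from -0.15 to 0.05 in the 4 genes measured, and none passed. Gar1, a core protein, had the smallest p of the class and read -0.48, 0.07, -0.01 and -0.24 in sham rats and -0.44, -0.33, -0.26 and -0.24 in nephrectomized rats. The sham rats spanned the whole nephrectomized range, with sham rat 1 lowest of all 8. Its log2 fold change was -0.15 (SE 0.12, interval -0.42 to 0.12, adjusted p = 0.571 by limma). It was -0.25 without sham rat 1, -0.07 without sham rat 2 and -0.10 without sham rat 3. Dkc1, dyskerin, the pseudouridine synthase, had 0.05 (-0.16 to 0.25) and Nop10, another core protein, 0.03 (-0.14 to 0.20). Nolc1, a scaffold on which snoRNPs mature, had 0.05 (-0.12 to 0.22), and its 3 probes lay between 0.03 and 0.05.

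**Figure D2:**
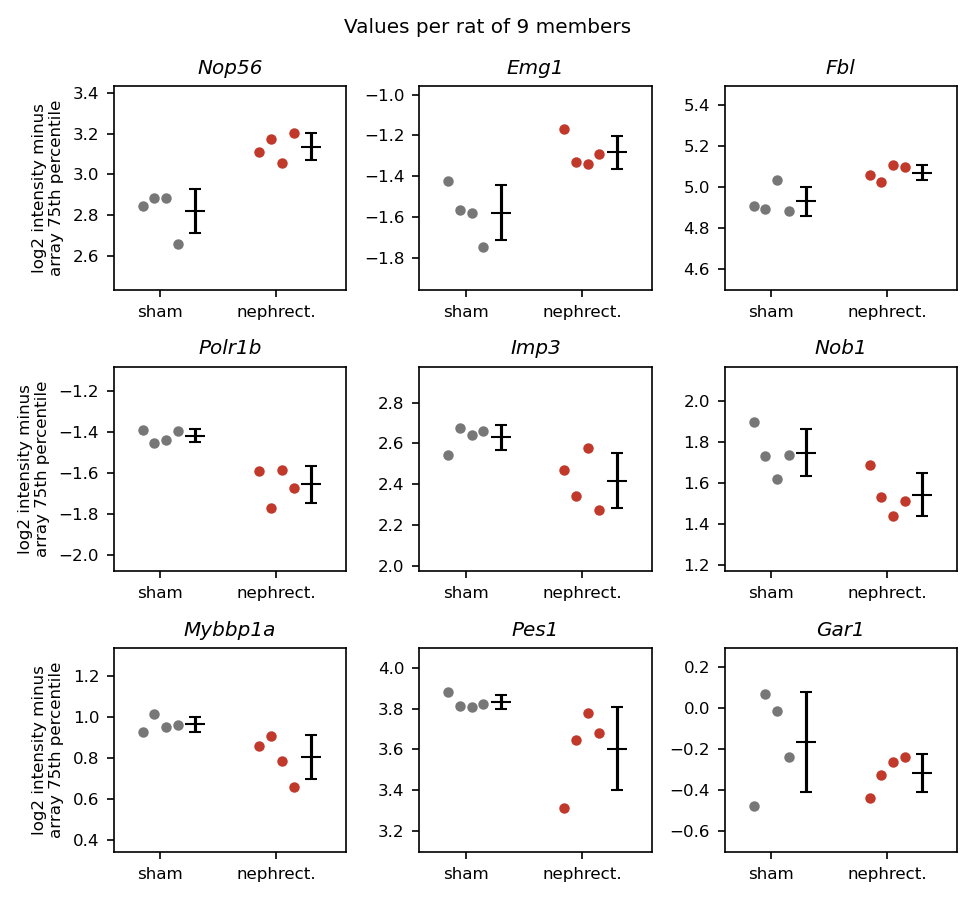
Values per rat (y axis, log2 intensity relative to the 75th percentile of the array) for the 8 members with the smallest p and Gar1, with grey points for sham rats and red points for nephrectomized rats. Bars give mean and SD (n = 4); Nop56, Emg1, Polr1b, Mybbp1a and Pes1 are the panels in which the groups do not overlap.

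Small-subunit assembly factors, 9 of them measured, had a median log2 fold change of -0.07 and none passed. Emg1, a methyltransferase that modifies the small-subunit RNA, read -1.42, -1.56, -1.58 and -1.75 in sham rats and -1.17, -1.33, -1.34 and -1.29 in nephrectomized rats. The lowest nephrectomized rat stood above the highest sham rat. The difference was 1.23-fold (interval 1.08 to 1.39; log2 fold change 0.29, SE 0.08), with an adjusted p = 0.0968 by limma, and 0.24 on slide 1 and 0.35 on slide 2 on the log2 scale.

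Imp3, a component of the complex that binds the precursor together with its guide snoRNA, read 2.54, 2.67, 2.64 and 2.66 in sham rats and 2.47, 2.34, 2.58 and 2.27 in nephrectomized rats. Nephrectomized rats 1, 2 and 4 were below all sham rats, and rat 3 was not. The log2 fold change was -0.21 (SE 0.08, interval -0.39 to -0.03, adjusted p = 0.201 by limma). Imp4, which acts in the same complex, had -0.08 (-0.26 to 0.11). Nob1, the endonuclease that makes the last cut of the small-subunit RNA, read 1.90, 1.74, 1.62 and 1.74 in sham rats and 1.69, 1.53, 1.44 and 1.51 in nephrectomized rats. Only nephrectomized rat 1 and sham rat 3 crossed. Its log2 fold change was -0.20 (SE 0.08, interval -0.39 to -0.02, adjusted p = 0.237 by limma), and it was -0.20 on each slide.

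Wdr43 and Heatr1, proteins of the early complex that gathers on the nascent transcript, had log2 fold changes of -0.12 (-0.31 to 0.06) and -0.07 (-0.27 to 0.13). Noc4l, which acts in early small-subunit assembly, had -0.03 (-0.20 to 0.14), and Ltv1, a late factor that leaves in the cytoplasm, 0.004 (-0.20 to 0.20). Utp18, another early factor, was the exception in spread. It read 0.57, -1.58, 0.82 and 0.75 in sham rats and 0.60, 0.53, 0.85 and 0.58 in nephrectomized rats. Sham rat 2 lay far below the other 7 rats, which covered 0.53 to 0.85. Its log2 fold change of 0.50 (interval -0.62 to 1.62) turned to -0.07 without that rat, so that no direction can be given. The probe has 1 spot per array, which carried no outlier mark. The table the authors deposited shows the same low value (-2.17 relative to the probe's median). That table matches the same intensities rescaled, so it is no second measurement.

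Large-subunit assembly factors gave 8 negative values among 9 measured, with a median of -0.10, and none passed. Pes1, pescadillo, which forms a complex with Bop1 and Wdr12 needed for large-subunit RNA processing, read 3.88, 3.81, 3.81 and 3.82 in sham rats. In nephrectomized rats it read 3.31, 3.64, 3.78 and 3.68. The sham rats were tightly grouped (SD 0.03, n = 4), and all nephrectomized rats were below them, by a wide margin in rat 1 and a narrow one in rat 3. The log2 fold change was -0.23 (SE 0.10, interval -0.45 to -0.002, adjusted p = 0.279 by limma), with -0.37 on slide 1 and -0.09 on slide 2. Leaving out nephrectomized rat 1 gave -0.13. Its partners Bop1 (-0.05, interval -0.19 to 0.08) and Wdr12 (-0.05, interval -0.20 to 0.10) had smaller values. Bop1 and Wdr12 were negative on slide 1 (-0.11 and -0.10) and slightly positive on slide 2 (0.01 and 0.004).

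Nop2, a methyltransferase of large-subunit RNA, had -0.10 (-0.28 to 0.07) and Ftsj3, another methyltransferase-family protein, -0.13 (-0.32 to 0.05). Nip7 had -0.11 (-0.37 to 0.14), Rrs1, which helps bring the small ribosomal RNA of the large subunit into the particle, -0.14 (-0.55 to 0.27), Nop16 -0.02 (-0.13 to 0.10) and Noc2l 0.04 (-0.14 to 0.21). Rrs1 had the widest interval of this class, and Nop16 the narrowest of all members tested.

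Multifunctional nucleolar proteins were all slightly negative, 5 of 5, between -0.16 and -0.06. Mybbp1a, a nucleolar protein that also binds transcription factors, read 0.93, 1.01, 0.95 and 0.96 in sham rats and 0.86, 0.91, 0.78 and 0.66 in nephrectomized rats. The groups did not overlap, and nephrectomized rat 4 was lowest. The log2 fold change was -0.16 (SE 0.07, interval -0.32 to -0.01, adjusted p = 0.265 by limma). Ncl, nucleolin, an abundant RNA-binding protein of the nucleolus, had -0.07 (-0.23 to 0.09), and Npm1, nucleophosmin, a histone and ribosome chaperone, -0.06 (-0.32 to 0.20). All 3 Npm1 probes lay between -0.07 and -0.06, and such probes can also hybridise to transcripts of near-identical copies. Ddx21, an RNA helicase, had -0.08 (-0.30 to 0.15), and Gnl3, nucleostemin, a nucleolar GTPase, -0.12 (-0.36 to 0.11).

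**Figure D3:**
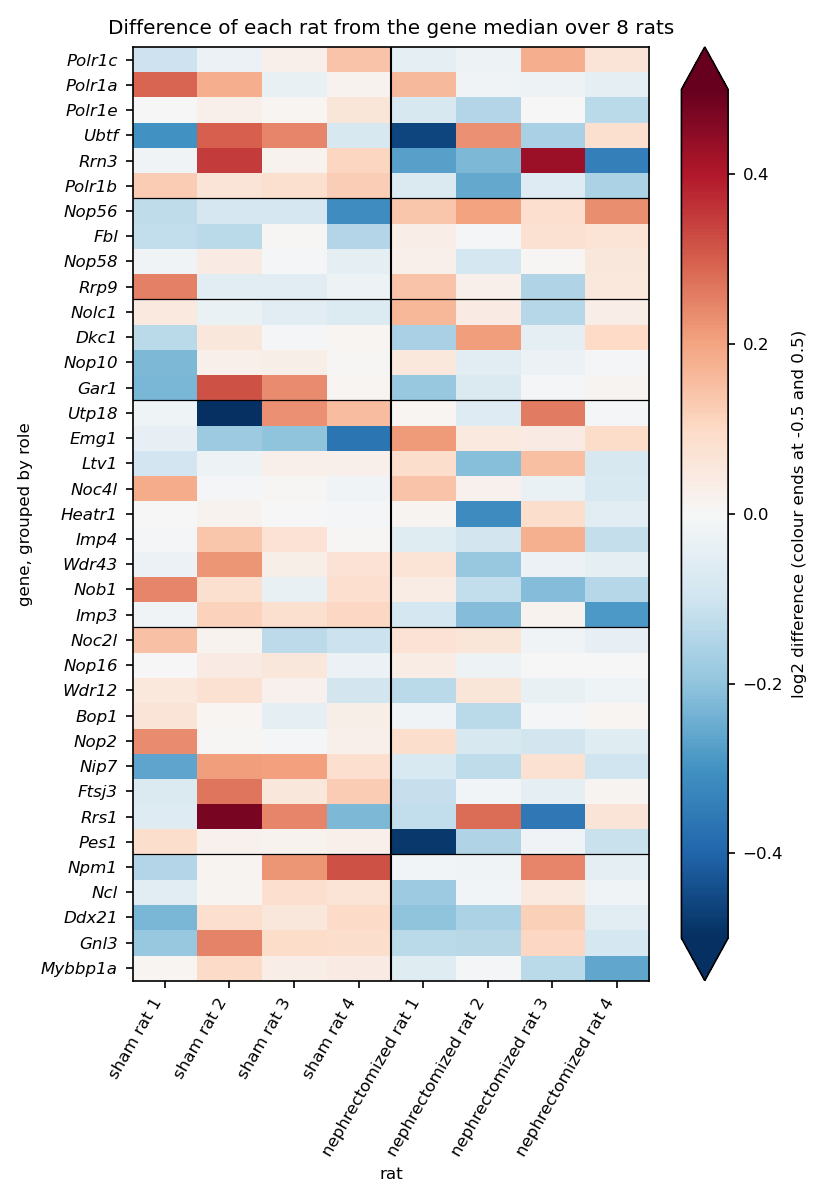
Difference of each of the 8 rats (columns) from the gene's median over the 8 rats, in log2 units by colour, for the 37 genes (rows, grouped by role; the black vertical line separates sham from nephrectomized rats). Nop56 and Emg1 are redder on the right, Polr1b and Pes1 bluer, and Utp18 has 1 dark cell in sham rat 2.

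Sham rat 1 was the lowest or the highest of the 8 rats for 43.2% of the members, 7 times the lowest and 9 times the highest, against 34.5% of all genes. It was the array with the smallest share of probes well above background, 54.8%, and the part of this in the members' values was not tested. Without that rat 0 members were called, and the median was -0.07. Nephrectomized rat 3, the next most often extreme, was so for 35.1% of the members and 36.4% of all genes. Leaving out any single rat called 0 members, with medians from -0.08 to -0.05.

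The regulatory sequence in front of these genes was examined for a pair of motifs, because promoters of nucleolar genes are known for E-boxes, the sites of Myc and related factors, and for ETS sites. The letters searched were CACGTG (E-box) and CCGGAAG (ETS core), on both strands, in the 250 bases before the start site in the RefSeq promoter table (GRCr8). Of the 43 genes, 40 had an entry. An E-box was present in 8 of 40 (20.0%), and in 6 of the 34 that were also tested (17.6%). It was present in 8.27% of the 8122 genes tested that had an entry and 5.79% of all 27457 promoters. The ETS core was present in 15 of 40 (37.5%) and in 14 of the 34 tested (41.2%), against 15.6% and 7.74%. A match is a description of letters, not of a bound site. Of the 8 members with the smallest p, Nop56 (positive change) and Polr1b, Imp3 and Nob1 (negative changes) held neither motif in this window. The sequences of the 4 that held at least 1 are shown. They are written 5′ to 3′ up to the start site, with the matches in capitals (CTTCCGG is the ETS core on the other strand).
Emg1 (chr4:159203827-159204076, minus strand): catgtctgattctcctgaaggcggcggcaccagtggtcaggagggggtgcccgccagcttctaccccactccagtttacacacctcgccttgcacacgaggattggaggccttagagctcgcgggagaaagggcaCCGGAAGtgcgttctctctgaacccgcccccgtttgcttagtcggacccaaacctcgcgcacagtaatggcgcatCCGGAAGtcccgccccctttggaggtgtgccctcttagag
Fbl (chr1:92597157-92597406, plus strand): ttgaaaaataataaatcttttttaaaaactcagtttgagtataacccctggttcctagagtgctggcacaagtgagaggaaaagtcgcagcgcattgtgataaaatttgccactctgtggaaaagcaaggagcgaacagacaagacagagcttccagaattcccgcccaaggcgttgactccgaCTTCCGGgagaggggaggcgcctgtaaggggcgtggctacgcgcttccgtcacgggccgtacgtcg
Mybbp1a (chr10:57555208-57555457, plus strand): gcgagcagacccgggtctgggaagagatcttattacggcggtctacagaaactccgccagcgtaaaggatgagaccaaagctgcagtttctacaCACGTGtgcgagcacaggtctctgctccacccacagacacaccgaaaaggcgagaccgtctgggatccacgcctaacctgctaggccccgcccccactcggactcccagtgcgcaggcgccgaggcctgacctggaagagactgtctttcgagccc
Pes1 (chr14:83074096-83074345, plus strand): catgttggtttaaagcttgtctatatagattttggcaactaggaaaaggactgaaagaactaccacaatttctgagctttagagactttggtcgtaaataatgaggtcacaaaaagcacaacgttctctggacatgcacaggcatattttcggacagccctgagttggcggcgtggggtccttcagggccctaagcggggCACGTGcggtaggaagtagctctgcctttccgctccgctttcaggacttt

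Counting bases back from the start site, Emg1 holds ETS cores that begin at positions -115 and -40, and Fbl holds 1 at -66. Both had positive log2 fold changes (0.29 and 0.14). Mybbp1a and Pes1 hold an E-box at -156 and -50, and both had negative values (-0.16 and -0.23). Among the 6 tested members with an E-box, 3 values were positive and 3 negative, with a median of -0.06, and the 28 without one had a median of -0.07. The 14 with an ETS core had a median of 0.01 (8 positive, 6 negative), and the 20 without one had -0.08 (3 positive, 17 negative). Utp18, whose direction cannot be given, holds both motifs and is among the positives. Without it, 2 of 5 with an E-box were positive (median -0.12) and 7 of 13 with an ETS core (median 0.004), a tally added after its value was seen. These are descriptions of members chosen with earlier results known, and the split by motif has no test.

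The rest of the pathway was read from 7 lists that together named 231 other genes, 190 of which were tested. In all, 0 rose and 2 fell, against 2.57% and 1.02% of all genes. At an unadjusted p under 0.05 (limma), 3 were higher and 11 lower, 7.37% of the 190 in either direction. Of all genes, 17.7% passed in either direction, 10.1% higher and 7.6% lower. The groups did not overlap for 5 of the list genes higher and 11 lower. That was 8.47% of those without a missing value, against 12.6% of all genes. Nop53, a large-subunit factor, read 1.92, 1.80, 1.71 and 1.81 in sham rats and 1.48, 1.49, 1.53 and 1.44 in nephrectomized rats. By limma its log2 level fell by 0.32 (SE 0.06), with an adjusted p = 0.0289 and no overlap between groups. Exosc5, a subunit of the RNA exosome that trims the precursor, read 3.38, 3.41, 3.40 and 3.38 in sham rats and 3.24, 3.04, 3.00 and 2.89 in nephrectomized rats. It fell by 0.35 (SE 0.08, adjusted p = 0.0499 by limma), again without overlap. Nop53 no longer passed after removal of sham rat 2 or 4 or of nephrectomized rat 1, 2 or 4 (adjusted p 0.0631 to 0.103), and that of Exosc5 was lost without any rat but nephrectomized rat 1 (0.0796 to 0.138).

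Other RNA polymerase I genes (9 tested of 15) had a median log2 fold change of -0.05 with 0 called. Polr2e, a subunit common to the polymerases, had 0.30 (adjusted p = 0.497 by limma), which was 0.10 without sham rat 3. Taf1c, part of the promoter selectivity factor, had -0.11 (adjusted p = 0.556), or -0.04 without nephrectomized rat 3 and -0.07 without sham rat 1. Among other small-subunit factors (35 of 44) the median was -0.02 with 0 called, and the helicases Ddx52 and Ddx49 had -0.28 (adjusted p = 0.115) and -0.35 (adjusted p = 0.174). Other large-subunit factors (40 of 49) had a median of -0.05. Their second gene by p, Rrp15, which acts in large-subunit maturation, had -0.21 with no overlap between groups (adjusted p = 0.128).

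Factors that assemble snoRNPs (7 of 10) had a median of -0.02 with 0 called. Coil, the marker protein of Cajal bodies, had -0.12 and Nufip1, a snoRNP assembly factor, -0.05 (adjusted p = 0.539 and 0.703 by limma). Coil had -0.04 without nephrectomized rat 2, and Nufip1 had -0.02 without nephrectomized rat 1 and -0.03 without sham rat 3. The RNA exosome list (10 of 16) had a median of -0.02, and Exosc4, another core subunit, had -0.16 (adjusted p = 0.164). RNA polymerase III genes (16 of 21) had a median of -0.05 with 0 called. Its subunits Polr3k and Polr3e had -0.21 (adjusted p = 0.125) and -0.15 (adjusted p = 0.288), both with no overlap between groups. Cytosolic ribosomal proteins (73 of 76) had a median of 0.01, with 40 positive and 33 negative. Rplp2, a stalk protein, and Rpl9 had 0.20 (adjusted p = 0.0937) and 0.21 (adjusted p = 0.244), and every nephrectomized rat was above every sham rat in both. Of the 73, the groups did not overlap for 5 higher and 3 lower (11%), against 12.6% of all genes. Ribosomal protein probes can hybridise to near-identical copies.

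**Figure D4:**
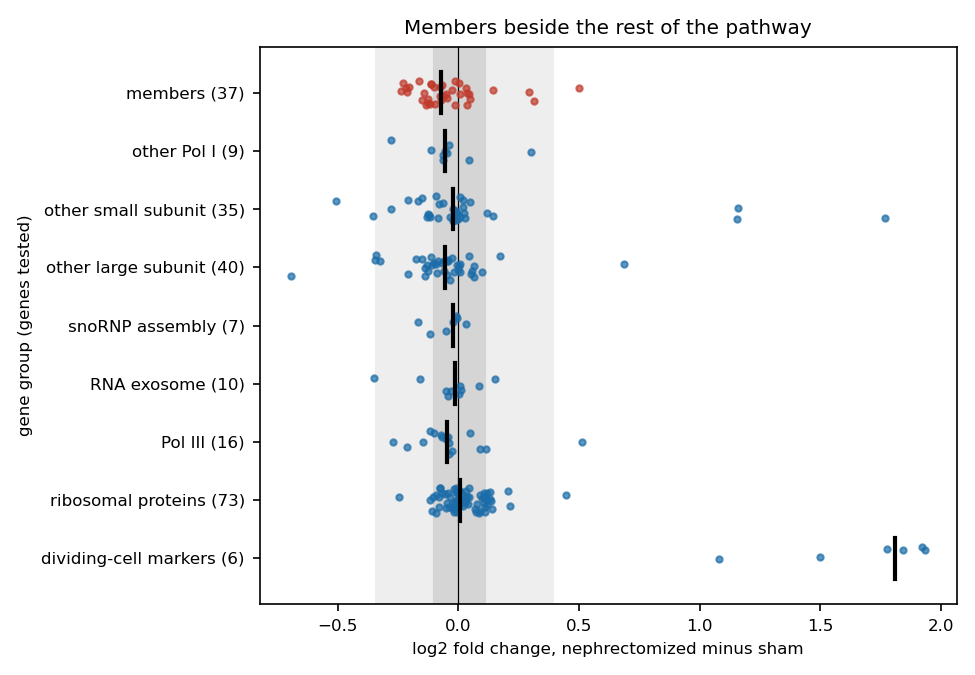
Log2 fold change (x axis, nephrectomized minus sham, 1 point per gene) of the members in red and of 7 lists of other pathway genes and the dividing-cell markers in blue, with black bars at the medians. The light and dark grey bands span the 5th to 95th and 25th to 75th percentiles of all 19865 genes tested; 36 of the 37 members lie inside the light band and the 6 dividing-cell markers outside it.

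Set against all genes, 18 of 37 members lay between the 25th and 75th percentiles of the log2 fold change (-0.10 and 0.11). The 5th and 95th percentiles were -0.34 and 0.39, and of the members only Utp18, whose value rests on 1 sham rat, lay outside them. The median size of the log2 fold change without regard to sign was 0.10 for the members and 0.11 for all genes.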

How the data were processed

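The members, lists and motifs were chosen with earlier results of these data known. Samples were 1-colour Agilent arrays (design 014879). Per the file headers, scans were read with Agilent Feature Extraction 10.5.1.1. The deposited intensity of a spot is linear, background-subtracted and detrended, with no scaling across arrays. A second deposited table holds log2 values. They match log2 intensities scaled to the 75th percentile and then centred on the median of the probe (r = 0.9999 across probes at the lowest, column medians -0.0169 to 0.0152). It served as an alternative.

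Here log2 intensities were averaged over a probe's spots without control spots and outlier marks, and each array's 75th percentile was subtracted. Probes well above background (a share of at least 0.5 of their spots) on all arrays of 1 group were kept (23982). RefSeq accessions without version gave a symbol to 18713 probes (GRCr8 gene table), and the brightest probe stood for a gene. The groups entered a two-sided limma fit (version 3.58.1, R 4.3.3) without covariates, p-values were adjusted by Benjamini-Hochberg across every gene, and the script was tested on simulated data. Full values are given for the 8 members with the smallest p, the first of each role and any called. Utp18 and genes beyond the 2 smallest p of each list were named after their values were seen. The labels do not say whether rats of the same replicate number were paired, and the main fit did not pair them. In 2 of 4 same-numbered pairs, deviations from the group means correlated above 0.1. Pairs of unlike number ran from -0.29 to 0.267, so these correlations cannot decide whether rats were paired. Normexp used the median spot intensity, in place of the mean.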

Additional observations from a re-analysis of the deposited data

Results flagged for a closer look

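In each group of 4 rats, a value was singled out where its gap to the nearest other rat took up more of the group's range than Dixon's 95% criterion allows. Chance alone gives this in about 1 group in 20. Of 102 groups examined, for the 37 members and 14 genes of the lists, 12 were singled out, all of them in members. The 14 were the list genes with the smallest p, a choice that favours close groups. The other list genes, among them Utp11 and Ddx47, were not examined, so this does not set the members apart. Of these, 6 involve sham rat 1. That rat was high for Rrp9 (0.71, others 0.41 to 0.44), Noc4l (1.04, others 0.83 to 0.86), Pes1 (3.88, others 3.81 to 3.82) and Nop2 (0.70, others 0.46 to 0.49), and low for Nop10 (4.67, others 4.90 to 4.92) and Ddx21 (1.84, others 2.13 to 2.16).

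Sham rat 2 was low for Utp18 (-1.58, others 0.57 to 0.82), and sham rat 3 was high for Fbl (5.03, others 4.88 to 4.91). Nephrectomized rat 1 was high for Polr1a (-1.10, others -1.31 to -1.28) and Nop2 (0.55, others 0.37 to 0.40). Nephrectomized rat 3 was high for Rrn3 (-2.95, others -3.72 to -3.60) and Npm1 (5.56, others 5.27 to 5.31).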

How the results depend on the processing

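Under 23 alternatives the count of members called stayed at 0 in each direction, except with a trend and robust variance model (1 higher, Nop56) and with array weights (2 higher, Nop56 and Emg1, and 2 lower, Polr1b and Imp3). These settings called 909 and 2520 of all genes, against 714 in the main analysis. The other settings called between 0 (within slide 1) and 802 (slide as a block), 282 of them when dim probes were kept and 296 with the replicate block. Within slide 1 and at the stricter adjusted p of 0.01 the members' count could only be 0, so these settings add nothing to it. The members' median stayed between -0.10 and -0.04, with 25 to 28 of 37 genes negative where 1 probe stood for a gene. The 8 members with the smallest p and Gar1 kept their sign under all 23 alternatives. The trend model, stricter threshold, blocks and filter settings left their fold changes as they were, so no sign could turn there. Signs of the other members were compared only between slides, where 28 of 37 members had the same sign. Utp18 was the exception and was put through all alternatives. It was -0.066 within slide 2 and ranged from -0.072 (without sham replicate 2) to 0.73 when 1 rat was left out. With the replicate block the adjusted p of Nop56 was 0.134, 0 members were called and 2 of 8 rats correlated best with their own number. Other pathway genes called higher numbered 1 with the trend model and 2 with array weights. The 2 called lower became 1 with quantile normalization or every probe on its own, 10 with array weights, and 0 without the filter, at an adjusted p of 0.01, with the replicate block, within slide 1 and within slide 2. Leaving out 1 rat gave 0 to 1.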

Other observations

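Several other pathway genes had large log2 fold changes that did not pass and that came from a single sham rat, as for Utp18. Utp11, a small-subunit factor, had 1.77, with sham rat 2 at -7.06 and the other rats between -0.11 and 0.19. Ddx47, an RNA helicase, had 1.16, with sham rat 1 at -5.65 and the others between -0.94 and -0.74. Pdcd11, another small-subunit factor, had 1.15, with sham rat 3 at -2.81 and the others between 1.69 and 1.97. Ddx55, a helicase of large-subunit assembly, had 0.69, with sham rat 1 at -1.28 and the others between 1.63 and 2.02. Their adjusted p ran from 0.596 to 0.656 (limma). For Utp11 and for Ddx47, 3 of the 4 sham rats were well above background. The largest negative values in the lists were those of Gtpbp4 and Nol10. Gtpbp4, a large-subunit factor, had -0.69 (adjusted p = 0.17 by limma). Its sham rats ran from 1.52 to 2.36 and its nephrectomized rats from 1.00 to 1.90. Nol10, a small-subunit factor, had -0.50 (adjusted p = 0.481 by limma). Its nephrectomized rat 2 read -4.47, and the others of that group lay between -3.10 and -2.77. All these genes were named after their values were seen.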
